A study of Mus musculus with 81 samples.

Results

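The comparison described here set germline cells of the fetal testis against the somatic cells around them, in control mice only. It used 8 of the 81 libraries of the series: the 4 P5 germline and the 4 P6 somatic RNA libraries of the F3 DMSO lineage, chosen by their labels and joined by locus and replicate number. The cells came from testes of male fetuses at E18.5 of the F3 generation, bred from F0 dams that had received the DMSO vehicle in their drinking water. In the lineage not used for the main comparison, F0 dams had received 50 nM tributyltin (TBT). All animals carried the OG2 transgene, EGFP under the Pou5f1 (Oct4) promoter and distal enhancer, kept on the C57BL/6J background, so that both populations shared this genotype. The cDNA was made from total RNA with an oligo-dT primer. P5 is 1 of 2 EGFP-positive gates (P4 and P5) that differ in side scatter, and P6 is the EGFP-negative gate. P6 is therefore a mixture of all other cells of the testis. Neither the labels nor the methods state whether the 4 libraries of a population came from separate litters, so the p-values measure the spread between these libraries, which may be partly technical.

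The measured features were murine endogenous retroviruses (mERVs), here every long terminal repeat (LTR) element that RepeatMasker lists. An LTR carries the promoter and the polyadenylation signal of a retroviral element, and the internal region between a pair of LTRs (written with the ending -int) carried its genes. Most copies are solitary LTRs or fragments. In somatic cells these elements are mainly held silent by DNA methylation and repressive histone marks. Germline cells erase DNA methylation early in fetal life, and in male germline cells new methylation is then laid down with help of the piRNA pathway, small RNAs bound by PIWI proteins.

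The tables hold 970384 loci of 680 repeat species, of which 64.5% lay outside annotated genes and 2.48% overlapped an exon. The others lay in introns. Between 1606422 and 8161548 reads per P5 library, and between 4104928 and 5032020 per P6 library, were counted at these loci. P5 replicates 1 and 2 stood apart from P5 replicates 3 and 4: they had the fewest reads (2017404 and 1606422), and 34.6% and 51.3% of 5853 host genes with a moderate level in P6 cells were at 0 in them, against 8.56% and 2.97% in P5 replicates 3 and 4 and at most 0.12% in P6. The chi-square per degree of freedom between libraries was 7.07 to 40.4 within P5 and 2.12 to 2.73 within P6. The main counts are therefore also given from replicates 3 and 4 alone. Levels are in CPM (counts divided by the scaled library size) after scaling all 8 libraries together. Differences are P5 minus P6 on the scale log2(CPM + 1 unit), where 1 unit is 0.227 CPM, about 1 read. They understate changes at low levels. A call is a false discovery rate (FDR) under 0.05 from limma with the replicate number as a block.

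The loci with the largest differences outside genes, described with their values further on, included 4 short LTR elements or LTR neighbours whose sequence is printed to show what kind of element was read. All are from GRCm38, the forward strand of the chromosome, since the tables give no orientation. Capitals mark TATAAA, the usual TATA box, or AATAAA, the usual polyadenylation signal, on the forward strand or as the reverse complement TTTATA or TTTATT. The first 3 were higher in P5 cells and the last was lower.
MTEa at chr9:99170793-99171006: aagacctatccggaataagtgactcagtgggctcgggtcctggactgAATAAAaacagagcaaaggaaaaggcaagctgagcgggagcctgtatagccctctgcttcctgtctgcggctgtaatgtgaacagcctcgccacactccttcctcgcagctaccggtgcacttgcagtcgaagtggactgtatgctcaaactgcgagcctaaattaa
MTB_Mm at chr9:121551150-121551403: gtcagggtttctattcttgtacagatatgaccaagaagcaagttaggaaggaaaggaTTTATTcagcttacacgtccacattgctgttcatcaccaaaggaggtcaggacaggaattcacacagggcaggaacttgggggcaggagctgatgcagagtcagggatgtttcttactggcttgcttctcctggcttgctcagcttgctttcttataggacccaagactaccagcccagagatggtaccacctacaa
RLTR25B at chr2:168311009-168311105: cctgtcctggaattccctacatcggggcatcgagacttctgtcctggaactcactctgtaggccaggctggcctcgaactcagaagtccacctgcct
RLTR30D_RN at chr17:34997140-34997395: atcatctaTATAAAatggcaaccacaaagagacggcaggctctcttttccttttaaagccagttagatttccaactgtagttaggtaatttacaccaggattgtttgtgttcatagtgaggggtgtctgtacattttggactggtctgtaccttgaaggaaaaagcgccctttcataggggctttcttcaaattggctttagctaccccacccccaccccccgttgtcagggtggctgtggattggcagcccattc
The MTEa locus held 1 AATAAA on the forward strand and no TATAAA. Among 2121 MTEa loci outside genes of similar length (within 20%), 33.0% held AATAAA and 9.90% TATAAA on either strand. The MTB_Mm locus held 1 AATAAA on the reverse strand, as did 38.8% of 291 like loci on either strand, and no TATAAA, which 15.1% held. The RLTR25B locus held neither (7.50% and 4.29% of 560 like loci held AATAAA and TATAAA). The RLTR30D_RN locus held 1 TATAAA on the forward strand, as did 66.7% of 3 like loci on either strand. No match says only that these letters are not in the interval.

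Host genes served to check the sort. Reads at LTR elements inside genes can be reads of the host gene. Each gene was measured by the LTR locus inside it with the highest mean over the 8 libraries. Of 11084 genes, 890 (8.03%) were higher and 1032 (9.31%) lower in P5 cells. With median-ratio scaling the counts were 852 and 1782, so that the share of higher genes among the calls was 32.3% instead of 46.3%. The counts fell to 49 and 58 without replicate 1, and rose to 2830 and 2089 in replicates 3 and 4 alone.

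Of the germline genes that were called, all were higher in P5 cells. In sorted bulk samples, fewer cells of a type and less RNA per cell cannot be told apart. Of 33 listed germline genes, 17 had a measurable locus, 8 rose and 0 fell (47.1% higher, beside 8.03% of all genes). Without replicate 1, 7 of 15 rose, and in replicates 3 and 4 alone 13 of 16. Hormad1, a protein of the meiotic chromosome axis, had 120, 103, 65.2 and 56.0 CPM in P5 replicates 1 to 4 and 0, 0, 0.236 and 0 CPM in P6 replicates 1 to 4. The populations did not overlap (log2 difference 8.24, standard error 0.884, limma FDR 0.00176). Dazl, an RNA-binding protein needed for germline development, had 78.8, 24.4, 181 and 235 CPM against 0.197, 0, 1.18 and 3.01 CPM (6.87, standard error 0.769, FDR 0.00177). Ddx4, the germline RNA helicase, differed by 6.33 and Pou5f1, the source of the transgene's promoter, by 7.18. Etv5 and Dmrt1, which were not called, had differences of -3.24 and -2.10, with FDRs of 0.0701 and 0.214. The summed level of the 17 genes was 626 to 1487 CPM in P5 and 29.6 to 60.0 CPM in P6 libraries, and only Nanos3 was at 0 in all P6 libraries.

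Of 24 listed piRNA pathway genes, 20 were measurable, of which 15 rose and 0 fell (75% higher, beside 8.03% of all genes). The list overlaps the germline list: Ddx4, Mael, Mov10l1, Rnf17 and Tdrkh are on both, and all of these but Tdrkh rose. The counts of the lists are therefore not separate results. Without replicate 1 only 6 of 21 rose, and in replicates 3 and 4 alone all 21. The PIWI genes Piwil2 and Piwil4, whose proteins bind the small RNAs, differed by 4.82 and 4.87, and lost their calls without replicate 1, as did Tdrd1 and Tdrd5 (FDR 0.051, 0.0522, 0.0572 and 0.139). Piwil2 had 15.2, 23.9, 66.6 and 91.1 CPM in P5 against 0.87 to 1.416 CPM in P6. The tudor domain genes Tdrd1, Tdrd5, Tdrd9 and Tdrd12, scaffolds of the pathway, differed by 5.34, 3.45, 6.22 and 5.39. Fkbp6, a co-chaperone in piRNA loading, was among the highest, with 359, 238, 648 and 500 CPM against 0.592, 0.218, 6.37 and 4.22 CPM (7.82, standard error 0.622, FDR 0.000667). Tdrd7, Tdrkh, Pnldc1, Exd1 and Spocd1 were not called, with differences of 0.62, 1.95, 2.97, 1.75 and 2.79. All 5 were at 0 in at least 1 of P5 replicates 1 and 2.

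Genes that silence retroviruses or write DNA methylation were called in shares near those of all genes. Of 32 listed, 30 were measurable, 3 rose and 3 fell (10% each way, beside 8.03% and 9.31% of all genes). Dnmt3l, the cofactor of de novo methylation in germline cells, had 34.6, 32.9, 119 and 96.8 CPM in P5 against 0.197, 0, 0.472 and 1.61 CPM in P6 (6.67, standard error 0.846, FDR 0.00241). Morc1, a chromatin ATPase of retroviral silencing in male germline cells, differed by 6.52. Mphosph8, a subunit of the HUSH complex, differed by 3.77, with 374, 281, 172 and 128 CPM against 14.4 to 18.7 CPM. Its partner Pphln1 was lower by a difference of -4.76, with 0, 0, 2.79 and 11.3 CPM in P5 against 26.3 to 38.7 CPM. Without replicate 1 neither Morc1 nor Pphln1 was called (FDR 0.0503 and 0.110). Uhrf1, which guides maintenance methylation, and Zfp809, a repressor of MuLV-like elements, were lower, by differences of -3.79 and -4.06. These calls were not stable either: 0 of 28 genes of the list were lower without replicate 1. With the quasi-likelihood test of edgeR 0 of 30 were lower. Dnmt1, Dnmt3a, Dnmt3b, Setdb1 and Trim28 were not called, with differences of -3.58, 0.34, 0.54, -1.77 and 1.64. Dnmt1 was near the threshold (FDR 0.0677), with 0, 0, 5.43 and 14.6 CPM in P5 against 12.3 to 20.9 CPM in P6. The Trim28 locus had reads only in P5 replicate 2 (21.1 CPM), so it says little about that gene. Dnmt3c, Tet1 and Trim28 were at 0 in all P6 libraries.

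Of the Sertoli, Leydig and interstitial genes that were called, all were lower in P5 cells. Of 12 measurable Sertoli cell genes of 22 listed, 9 fell and 0 rose (75% lower, beside 9.31% of all genes). Gata4, a transcription factor of the gonad, had 0, 0, 7.05 and 14.1 CPM in P5 against 409, 330, 302 and 398 CPM in P6 (-7.88, standard error 1.04, FDR 0.00286), and was not called without replicate 1 (FDR 0.0503). Wt1 was at 0 in all 4 P5 libraries and at 7.79 to 15.7 CPM in P6. Of 10 measurable Leydig cell genes of 17 listed, 6 fell (60%), among them Cyp17a1, an enzyme of androgen synthesis (-4.68), and Nr2f2, a marker of interstitial progenitors (-4.26). Of 12 measurable peritubular and interstitial genes of 21 listed, 9 fell (75%), led by Col4a1, a basement membrane collagen, with 0, 0, 0.734 and 3.66 CPM against 185, 237, 147 and 177 CPM (-8.12, standard error 0.92, FDR 0.00177). Without replicate 1, 3 of 11 Sertoli, 1 of 10 Leydig and 4 of 12 interstitial genes fell. In replicates 3 and 4 alone these were 10 of 11, 7 of 9 and 9 of 12, and 1 interstitial gene rose. With the quasi-likelihood test of edgeR 2 of 10 Leydig genes fell. The summed levels of the Sertoli list were 22.1 to 66.4 CPM in P5 and 756 to 1253 CPM in P6. The corresponding values of the Leydig list were 61.7 to 141 and 209 to 258 CPM, and of the interstitial list 10.6 to 59.6 and 935 to 1154 CPM. These sums include genes that were not called, such as Fdx1 of the Leydig list, with 61.8 ± 31.2 CPM in P5 and 32.4 ± 3.52 CPM in P6 (SD, n = 4), and Dmrt1 of the germline list, with 6.05 ± 6.91 and 10.8 ± 4.07 CPM. Their part in the results below was not tested. Of 7 measurable endothelial genes of 12 listed 1 fell (Cdh5, -3.67), beside 9.31% of all genes, and 0 did when any 1 replicate was left out. The other 6 were not called, with differences of 1.60 to 2.77 for Pecam1, Flt1, Tek, Emcn and Plvap and of -2.04 for Eng. The median difference of the endothelial list was 1.61, with summed levels of 13.5 to 57.3 CPM in P5 and at most 19.8 CPM in P6. The highest P5 sum was that of replicate 2, which held 31.9 CPM of Flt1 and 18.8 CPM of Tek. Among 12 measurable nuclear receptors, the targets of TBT included, Rxrg and Nr1h3 rose and Esr2 fell (16.7% and 8.33%, beside 8.03% and 9.31% of all genes). These 3 had levels under 10 CPM on average, and each lost its call when any of replicates 1, 3 or 4 was left out. Without replicate 2, 1 of 9 receptors rose and 0 fell. With the quasi-likelihood test of edgeR 0 of 12 rose and 0 fell.

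**Figure D1:**
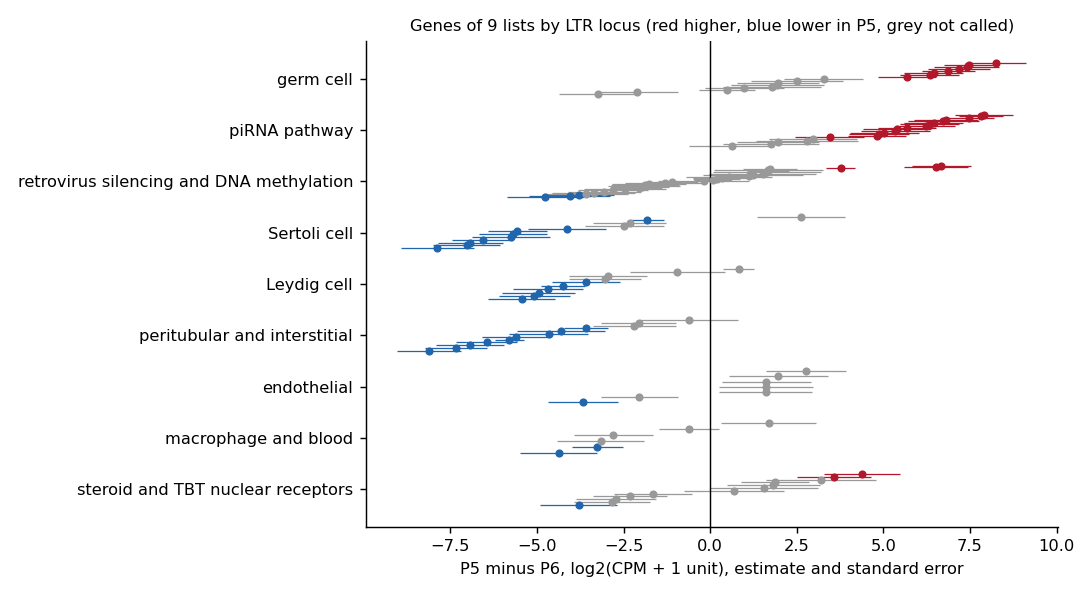
Each point is 1 gene of 9 lists, measured by its best-covered LTR locus. The horizontal axis gives the difference P5 minus P6 in log2(CPM + 1 unit) with its standard error over 4 pairs of libraries. Red genes were higher and blue genes lower in P5 cells at an FDR under 0.05, and grey genes were not called. Germline and piRNA pathway genes lie to the right (8 of 17 and 15 of 20 called higher), Sertoli, Leydig and interstitial genes to the left (9 of 12, 6 of 10 and 9 of 12 called lower).

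Reads outside genes took a larger share in P5 cells. The share of reads at loci outside genes was 23.5%, 27.9%, 8.75% and 6.12% in P5 replicates 1 to 4 and 1.23%, 1.33%, 1.41% and 1.34% in P6 replicates 1 to 4. It was higher in P5 in 4 of 4 pairs, by 15.3 ± 10.8 percentage points (SD of the pair differences, n = 4). Replicates 1 and 2, the P5 libraries with the fewest reads, were the highest. The part of depth in the share was not tested. The lowest P5 library was still above the highest P6 library. The exact two-sided sign-flip permutation test gave the smallest p that 4 pairs allow, which is above 0.05. In replicates 3 and 4 alone the mean difference was 6.06 percentage points. Over 10 kb from any gene the share was 8.56 ± 5.51% in P5 and 0.313 ± 0.0277% in P6 (SD, n = 4). The P4 germline libraries of the same lineage had 2.58% to 5.10%, below the P5 library of the same number in 4 of 4 pairs (also at the smallest p that the exact test allows).

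The higher level was spread over nearly all species. Per megabase of annotated sequence outside genes, the median over 600 species was 954, 950, 472 and 357 CPM in the P5 libraries and 23.7 to 33.9 CPM in the P6 libraries. Across species, the log2 total and the log2 annotated length had a Pearson r of 0.85, 0.806, 0.873 and 0.898 in P5 replicates 1 to 4 and of 0.653 to 0.72 in P6. The points share a library, and the correlation is a description. The part of this even level in the differences of single species was not tested.

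**Figure D2:**
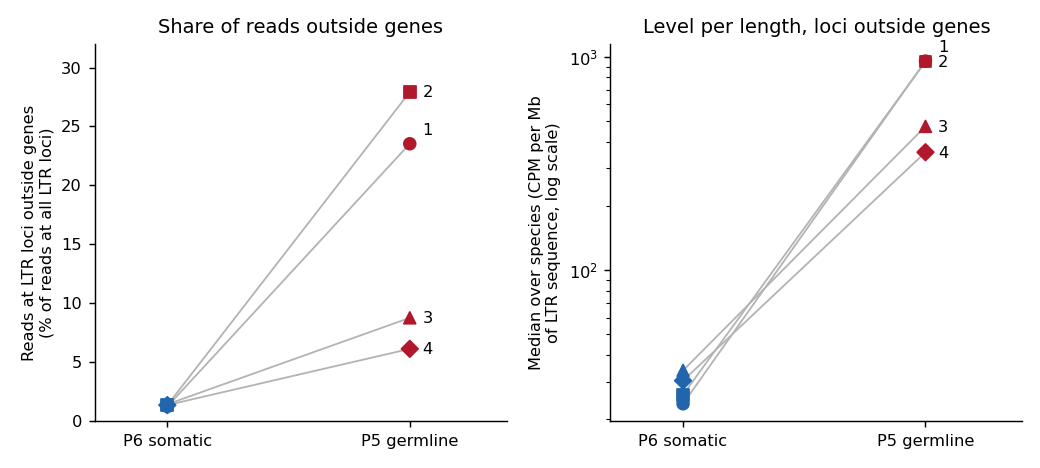
Left, the share of reads at LTR loci outside genes, in percent of all reads at LTR loci. Right, the median over 600 species of the level per megabase of LTR sequence outside genes, in CPM on a log scale. Each marker is 1 library, lines join P6 and P5 libraries of the same replicate number, and numbers give the replicate. All 4 P5 libraries lie above all P6 libraries in both panels, with P5 replicates 1 and 2 highest.

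At single loci, 131053 of the 970384 loci had a mean of at least 5 units and were tested, of which 10971 (8.37%) were higher and 25517 (19.5%) lower in P5 cells. The median difference of all tested loci was -0.84, -1.26 with median-ratio scaling, 0.14 in replicates 3 and 4 alone and 0.40 without the filter on low loci. The balance of calls turned as well, to 27268 higher and 26072 lower loci in replicates 3 and 4 alone and to 14902 and 12279 with the quasi-likelihood test of edgeR. The balance differed with the location of a locus. Of 17504 loci outside genes, 3818 (21.8%) were higher and 273 (1.56%) lower, with a median difference of 2.23. These shares depend on the filter, which a locus near 0 in P6 passes only through P5. Without it, 3.34% of 109478 loci outside genes were higher and 0.227% lower, with a median of 0.71. Of 105590 loci in introns, 6285 (5.95%) were higher and 23776 (22.5%) lower, with a median of -1.34. Of 7959 loci overlapping an exon, 868 (10.9%) were higher and 1468 (18.4%) lower, with a median of -0.66. The excess of lower calls inside genes was nearly gone in replicates 3 and 4 alone, with 22110 higher and 24152 lower loci in introns (20.6% and 22.5%, median -0.074) and 1709 and 1611 overlapping an exon. With the quasi-likelihood test of edgeR these counts were 6676 and 11315 in introns and 1032 and 781 in exons. Many intronic loci hold the same reads: among loci with at least 40 reads in the 8 libraries, 48.8% of 104301 in introns had exactly the same reads in every library as another locus of the same chromosome, 61 of them in Galnt18. The same held for 14.7% of 12941 loci outside genes. Intronic counts are therefore counts of loci, not of transcripts. The number of loci called outside genes was 7194 higher and 183 lower with the quasi-likelihood test of edgeR on the recovered reads. Without replicate 1 it was 1408 and 140, and in replicates 3 and 4 alone 3449 and 309.

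**Figure D3:**
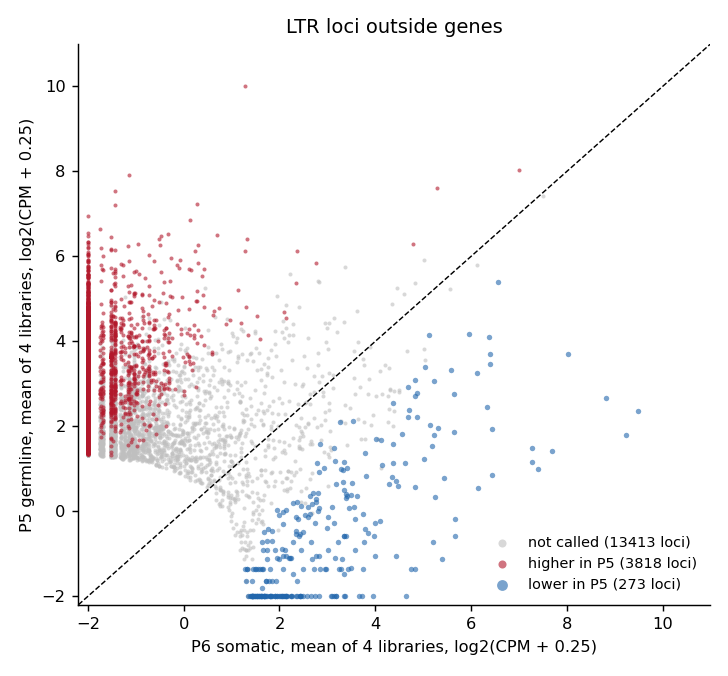
Each point is 1 of 17504 LTR loci outside genes. Axes give the mean of 4 P6 libraries and of 4 P5 libraries in log2(CPM + 0.25), and the dashed line marks equal levels. The 3818 loci that were higher in P5 cells (red) lie mostly at or near 0 in P6, and the 273 lower loci (blue) form a smaller arm below the line.

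Distance from genes made little difference to the higher loci: 21.9% of 8630 loci within 10 kb of a gene and 21.7% of 8874 farther away were higher, while 2.44% and 0.699% were lower. By class, 25.8% of 8400 ERVK loci and 26.3% of 2045 ERV1 loci were higher, against 16.1% of 1499 ERVL and 15.7% of 5479 ERVL-MaLR loci. The Y chromosome had the only excess of lower loci, compared with the X and with all autosomes: 13 of 110 Y loci were higher and 17 lower, against 105 higher and 15 lower of 683 on the X and 3700 higher and 241 lower of 16711 on autosomes. These 17 belonged to 5 species, ERVB4_1B-I_MM-int (8 loci), MuLV-int (5), RMER16A3 (2), RLTR4_MM-int (1) and RLTR4_Mm (1). The highest in P6 was the ERVB4_1B-I_MM-int locus at chrY:59665192-59665901, with 37, 44, 45 and 24 reads in P5 and 1596, 1014, 921 and 1412 reads in P6 replicates 1 to 4 (log2 difference -4.48, standard error 0.383, FDR 1.15e-05).

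Summed over all loci of a species outside genes, 559 of 600 species (93.2%) were higher and 6 (1.00%) lower in P5 cells, with a median difference of 4.45. All P5 libraries lay above all P6 libraries in 85.3% of the species and below in 1.17%. In replicates 3 and 4 alone 554 species were higher and 10 lower. The call depends on what the libraries are scaled to. When each library was scaled to the same total of reads outside genes, which takes out the difference in that total, 310 of 574 species were higher and 43 lower (87.8% of the calls higher instead of 98.9%). Summing all loci of a species, those in genes included, gave 172 higher and 54 lower of 665. Species described singly below are given on the first scale, with the second beside those whose call it changes.

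The families with the largest ratios were RLTR44 with RLTR45, and MMERVK10 with RLTR10. RLTR44 and RLTR45 elements, of class ERVK, had a total of 4105 ± 2195 CPM in P5 and 39.08 ± 20.05 CPM in P6 (SD, n = 4), a ratio of 105. The P5 totals were 6035, 5935, 2623 and 1828 CPM, with replicates 1 and 2 the highest. All 8 of their species were higher, beside 93.2% of all species. Of 353 tested loci, 170 rose and 1 fell (48.2% and 0.283%, beside 21.8% and 1.56% of all loci outside genes). RLTR44-int, the internal region, had 1198, 1911, 954 and 618 CPM in P5 against 2.76, 0, 5.90 and 14.9 CPM in P6. The populations were far apart (log2 difference 8.58, standard error 0.594, FDR 4.32e-42; 5.63 with the same total outside genes). Its LTRs RLTR44B and RLTR44E differed by 8.63 and 8.47. Reads of RLTR44-int fell on 163 of 513 loci in P5 and on 19 in P6, and the top locus held 7.93% of the P5 total.

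MMERVK10 and RLTR10 elements rose from 138 ± 36.8 CPM in P6 to 11091 ± 5786 CPM in P5 (SD, n = 4), a ratio of 80.5. The P5 totals were 17457, 13987, 8536 and 4382 CPM, with replicates 1 and 2 again the highest. All 13 species were higher, again beside 93.2% of all species, although RLTR10F was not called with the same total outside genes (0.73, FDR 0.179), and of 1106 tested loci 459 rose and 1 fell (41.5% and 0.0904%). MMERVK10C-int had 4307, 3321, 2575 and 1077 CPM in P5 against 22.7, 38.9, 44.4 and 38.8 CPM in P6 (6.15, standard error 0.513, FDR 4.01e-30; 2.74 with the same total outside genes). RLTR10-int, its relative, was the second most abundant species of P5 cells, with 6016, 4435, 2570 and 953 CPM against 16.1 to 33.3 CPM in P6. P5 replicate 4 was the lowest in both.

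Next came MuRRS with MURVY, RMER16 with RMER17, and RLTR1 with RLTR1B, with ratios of 46.6, 39.7 and 38.3. MuRRS-int and RLTR1B-int, of class ERV1, differed by 5.95 and 6.09, and MURVY-int, a family with copies on the Y chromosome, by 7.79. MURVY-int had 264, 162, 185 and 176 CPM in P5 and 0.79, 0, 3.78 and 0.402 CPM in P6, and P5 replicate 2 was the lowest of the P5 libraries. Loci on the Y chromosome held 37.2% of its P5 level. IAPEY5_I-int and ERVB4_3-I_MM-int were at 0 in 3 of 4 P6 libraries and had 47.8 to 273 and 42.5 to 328 CPM in P5. RLTR27 and RMER6-int, with log2 differences of 7.76 and 7.70, complete the 8 species with the largest rise.

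IAP elements, young ERVK elements that are still mobile in mice, differed widely among themselves. IAP-d-int had 470, 329, 711 and 512 CPM in P5 against 8.88, 3.70, 18.6 and 8.43 CPM in P6 (5.80), and IAPEy-int differed by 6.74. IAP1-MM_I-int and IAPEY3-int differed by 4.09 and 4.17, although with the same total outside genes the former was not called (0.69, FDR 0.287). IAPLTR3-int differed by 2.75 on the first scale and by -0.65 on the second (FDR 0.0345). IAPEz-int, with 5486 loci outside genes the most numerous IAP internal region here, had 1874, 1303, 905 and 390 CPM in P5 against 365, 394, 421 and 452 CPM in P6. The populations overlapped, since P5 replicate 4 lay inside the P6 range. It was called higher (1.24, standard error 0.485, FDR 0.0115), was not called in replicates 3 and 4 alone (0.33, FDR 0.319), and was lower with the same total outside genes (-2.17, FDR 1.94e-06). Its loci went both ways, 7 higher and 20 lower of 114 tested. IAPA_MM-int was not called, with 8.75, 25.8, 6.46 and 10.1 CPM against 7.55 to 10.2 CPM (0.30, FDR 0.684; -3.01 with the same total outside genes, FDR 0.000797).

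Other young internal regions rose on the first scale. ETnERV-int and MMERGLN-int differed by 5.46 and 4.61. MERVL-int, the ERVL element of the early embryo, had 195, 219, 168 and 126 CPM in P5 against at most 21.8 CPM in P6 (3.17, FDR 1.44e-07), and -0.23 with the same total outside genes (FDR 0.476). RLTR6-int differed by 2.98, and by -0.43 with the same total outside genes (FDR 0.154). The related MMVL30-int, second in level in P6, had 1728, 1878, 1171 and 616 CPM against 827, 915, 1105 and 937 CPM and was not called (0.39, FDR 0.403), but was lower with the same total outside genes (-3.02, FDR 6.78e-09).

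**Figure D4:**
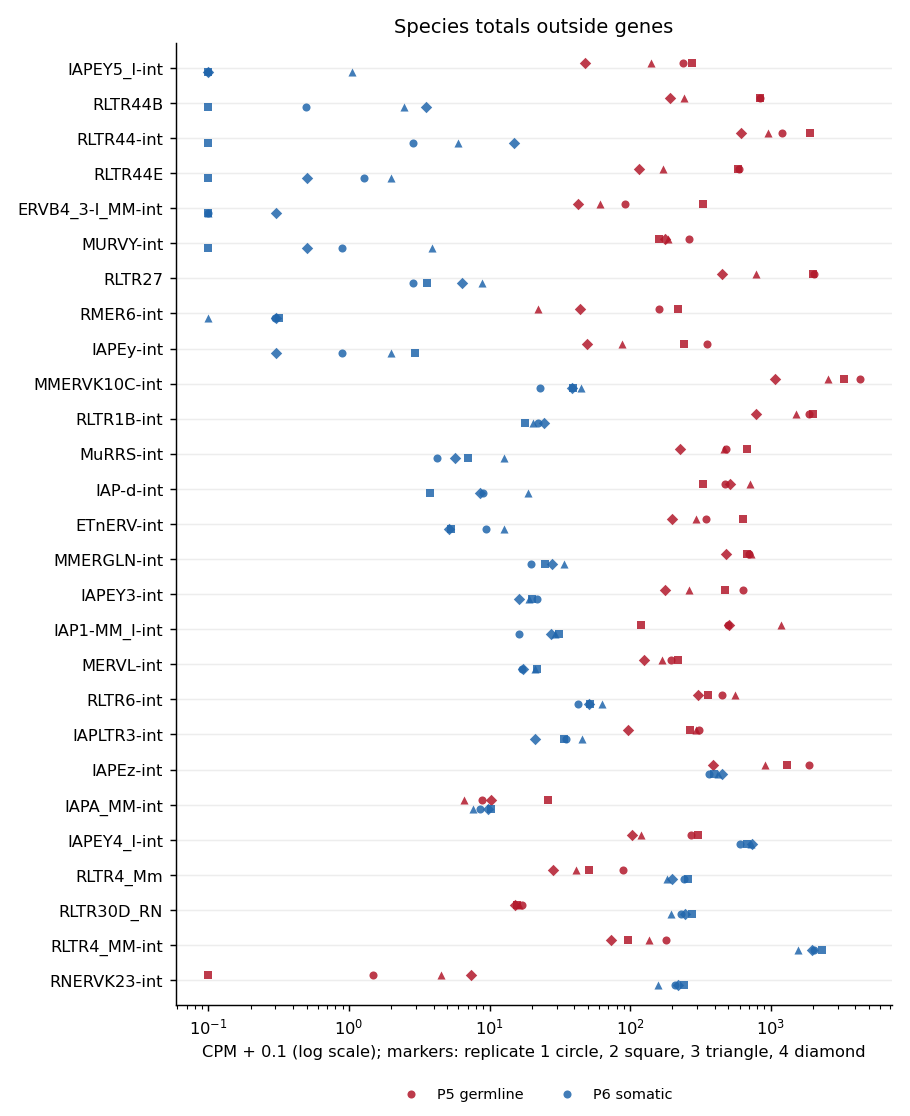
Totals outside genes of 27 named species, ordered by their log2 difference, in CPM + 0.1 on a log axis. Red markers are the 4 P5 libraries and blue markers the 4 P6 libraries, with the replicate given by the shape. The populations separate for all species but IAPEz-int and IAPA_MM-int, where they overlap, and the lowest 5 species are higher in P6.

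A small set of species was higher in somatic cells. The 6 were RNERVK23-int, RLTR4_MM-int, RLTR30D_RN, LTR108a_Mam, RLTR4_Mm and IAPEY4_I-int, and none of the 5 named by the rule lost its call or turned in direction under any of 16 alternatives. RLTR4_MM-int, the internal region of MuLV-like elements, was the most abundant species of P6 cells and took 15.1% of their reads outside genes. It had 181, 96.3, 137 and 73.4 CPM in P5 and 2016, 2313, 1575 and 1964 CPM in P6. No P5 library came near the P6 range (-4.08, standard error 0.495, FDR 1.58e-15). Much of the P6 level lay in 1 run on chromosome 4. The locus chr4:133096444-133099025 held 36.5% of it, and the next piece, chr4:133099014-133100849, had a mean of 601 CPM in P6. Without the former locus the mean totals were 117 CPM in P5 and 1250 CPM in P6. The LTR of RLTR4_MM-int, RLTR4_Mm, had 28.4 to 88.5 CPM against 182 to 257 CPM (-2.18, standard error 0.56, FDR 0.00013). MuLV-int, the third species of the family, had 57.6 to 118 CPM against 119 to 171 CPM, without overlap, and was not called (-0.73, FDR 0.197). With the same total outside genes it was lower (-4.13, FDR 6.33e-06). Of 83 tested loci of the family outside genes, 1 rose and 43 fell, against 21.8% and 1.56% of all loci outside genes.

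IAPEY4_I-int, an internal region of the IAPE type, had 269, 301, 120 and 103 CPM in P5 against 609, 675, 719 and 736 CPM in P6 (-1.94, standard error 0.507, FDR 0.000162). One locus, chr7:48124450-48132115, held 66.1% of its P6 level and 3.09% of its P5 level. Without that locus the totals were 192 CPM in P5 and 232 CPM in P6. RNERVK23-int rested on 1 locus in P6, and RLTR30D_RN lay mostly beside it, with 65.6% of its P6 level at chr17:34997140-34997395, the interval printed above. ERVB4_1B-I_MM-int was not called as a total, with 724, 454, 341 and 209 CPM against 519 to 746 CPM (-0.68, FDR 0.176). With the same total outside genes it was lower (-4.09, FDR 7.54e-09).

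Of the 6 named loci outside genes with the largest rise, 3 had a neighbour within 5 kb that also rose. The MTEa locus at chr9:99170793-99171006, 30.2 kb from Pik3cb and of the class of MaLR elements, had 4782, 2279, 2772 and 1467 reads in P5 and 10, 0, 20 and 10 reads in P6 replicates 1 to 4. Scaled, this was 1023 ± 846 CPM against 2.18 ± 1.94 CPM (SD, n = 4; log2 difference 9.02, standard error 0.74, FDR 8.03e-06). P4 libraries had 1260, 962, 208 and 606 reads there. The MTB_Mm locus at chr9:121551150-121551403 had 668, 582, 693 and 204 reads in P5 and 2 reads in all of P6, all of them in replicate 3. The ratio is 1747 (95% Poisson interval 484 to 14424, counting error only). The RLTR44B element that follows it at chr9:121551409-121551800 rose as well, with 246, 217, 360 and 102 reads in P5.

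The MMERVK10C-int locus at chr7:44154043-44156019 lies 0.825 kb from Gm45136 and had 367, 525, 401 and 60 reads in P5 and 0 in all 4 P6 libraries, at least 192-fold higher than the 3 reads per library that a count of 0 allows. P4 libraries, also germline, had 0, 0, 4 and 2 reads there. The RLTR44-int locus at chr3:8020058-8022677 had 49, 328, 1062 and 137 reads in P5 and 0 in P6 (at least 145-fold higher), and the RLTR44B elements at both of its ends also rose. The RMER19B locus at chr11:93758619-93759139 had 729, 314, 395 and 162 reads in P5 and 2 in P6. The RLTR25B locus at chr2:168311009-168311105 had 835, 1112, 193 and 79 reads in P5 and 4 in P6. At each of these 6 loci every P5 library exceeded every P6 library, which the naming rule required. This held for 15.5% of all tested loci outside genes, and the reverse for 1.61%.

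Of the loci lower in P5 cells, the RLTR4_MM-int locus at chr4:133099014-133100849 had 0, 2, 32 and 26 reads in P5 and 2970, 3112, 2190 and 3113 reads in P6. Scaled, this was 3.24 ± 3.39 CPM against 601 ± 67.5 CPM (SD, n = 4; -8.40, standard error 0.704, FDR 1.03e-05). It belongs to a run of RLTR4_Mm LTRs and RLTR4_MM-int pieces, and all 7 loci tested within 5 kb fell. A second RLTR4_MM-int locus, in an intron of Chd9 at chr8:90886778-90889360, had 8, 0, 0 and 23 reads in P5 and 3284, 3369, 2470 and 3628 reads in P6 (-9.28). The sequence of the chromosome 4 locus occurs in or beside the Chd9 locus without a difference in 1836 bases. That of the Chd9 locus occurs in or beside the chromosome 4 locus with 1 difference in 2583 bases. The 2 named intervals need not be the same stretch of the element. Reads from these stretches cannot be assigned to 1 of the 2 copies, apart from those that cover the difference. The RLTR4_MM-int locus at chr13:21813151-21819260 had 13, 0, 0 and 1 reads in P5 and 458, 501, 305 and 380 reads in P6. The best match of the chromosome 4 locus in or beside it was 85.7% identical.

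At chr17:34998194-34998562, 2.42 kb from Vars, an RNERVK23-int locus had 0, 0, 30 and 19 reads in P5 and 1056, 1106, 669 and 1098 reads in P6 (-7.58). The RLTR30D_RN and RLTR11A elements before it fell too, and 4 of 7 tested loci within 5 kb were lower. The other 3 named loci were an ETnERV2-int locus at chr7:48156783-48157107, an ERVB4_1B-I_MM-int locus at chr3:6340477-6343247 and an ETnERV3-int locus at chr7:106267266-106269782, with 6, 3 and 32 reads in all P5 libraries together and at least 103 reads in each P6 library. P5 replicate 1 held 31 of the 32 reads at the last.

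**Figure D5:**
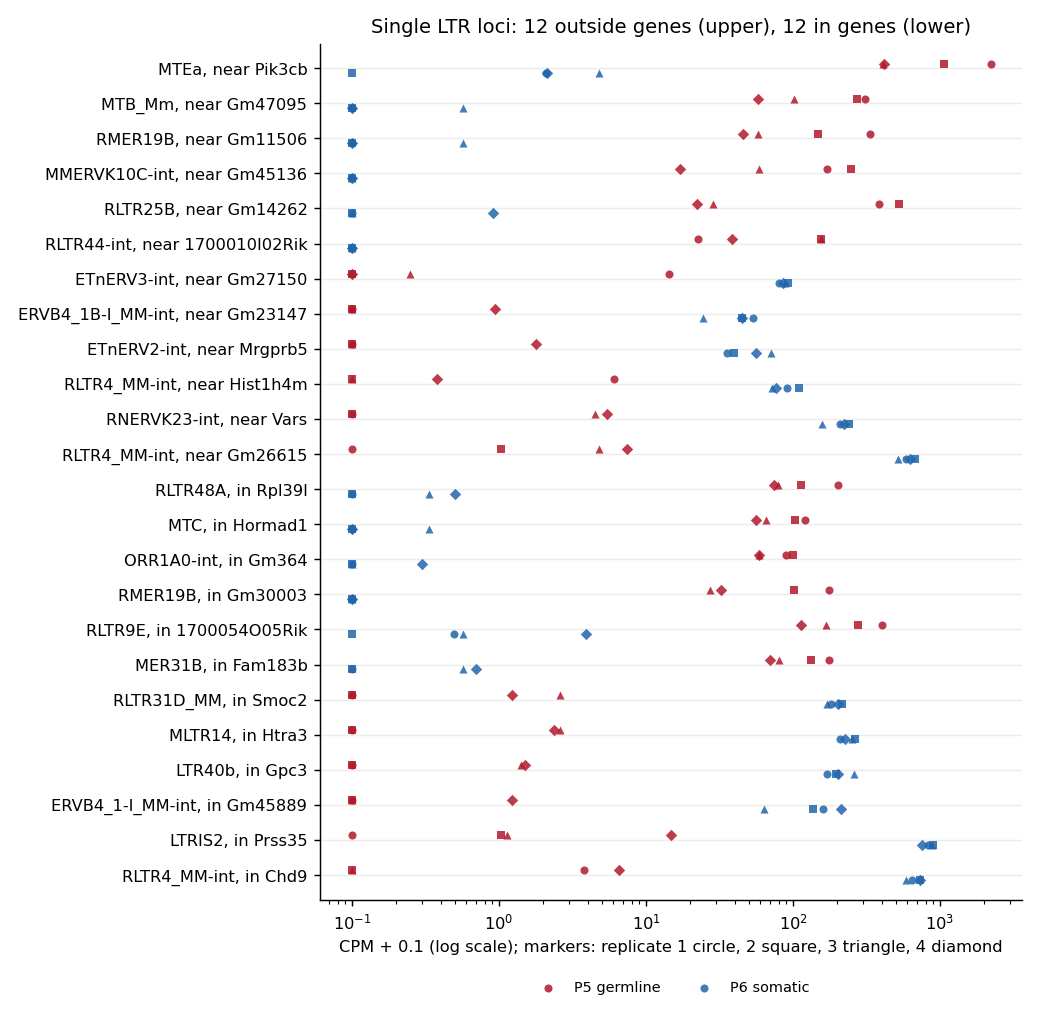
The 24 named loci, 12 outside genes above and 12 in genes below, in CPM + 0.1 on a log axis. Red markers are P5 and blue markers P6 libraries, with the replicate given by the shape, and each label names the element with its host or nearest gene. At each locus all 4 libraries of one population lie above all 4 of the other.

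Inside genes, the named loci that rose lay in Rpl39l, Hormad1, Gm364, Gm30003, 1700054O05Rik and Fam183b. The RMER19B locus in an intron of Gm30003 had 379, 215, 185 and 115 reads in P5 and 0 in P6. The ORR1A0-int locus in Gm364 had 194, 214, 402 and 207 reads in P5 and 1 in P6. Those that fell lay, beside Chd9, in Prss35, Gm45889, Gpc3, Htra3 and Smoc2. The LTRIS2 element that overlaps an exon of Prss35, a protease-like gene, had 0, 2, 7 and 52 reads in P5 and 4173, 4123, 3723 and 3747 reads in P6 (-9.13, standard error 0.73, FDR 5.80e-06). The MLTR14 element in an intron of Htra3, a secreted serine protease, and the LTR40b element in an intron of Gpc3, a heparan sulfate proteoglycan, differed by -8.27 and -8.41. Reads at these elements cannot be told apart from unspliced or spliced reads of the host gene, and an antisense transcript cannot be told apart either, since the tables give no strand.

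The same contrast could be repeated in libraries that the comparison did not use. In the F3 TBT lineage, with 5 P5 and 5 P6 libraries, 15.3% of all tested loci were called higher and 30.3% lower, and 91.9% and 1.82% of species. Of the 3818 higher and 273 lower loci outside genes in the DMSO lineage, 2606 and 264 passed the filter on low loci there. A locus that is near 0 in 1 population passes that filter only through the other, so their directions are not counted. The same applies to species near 0 in P6, so the directions of species are not counted either. Of the 559 higher species, 556 were tested and 531 were called higher, beside 91.9% of all species there. All 6 lower species were called lower. These counts are a description. RLTR4_MM-int had 13.1 to 135 CPM in P5 and 2343 to 2792 CPM in P6 of that lineage (-5.49), and RLTR44-int had 348 to 1071 CPM against 0 to 3.49 CPM (8.36). IAPEz-int was not called there (0.57, FDR 0.083). The share of reads outside genes was 6.06% to 31.1% in P5 and 1.19% to 1.52% in P6 (exact sign-flip permutation test, two-sided p = 0.0625, the smallest that 5 pairs allow). The 31.1% was that of replicate 5, the library with the fewest reads, and the other P5 libraries had 6.06% to 11.9%. A test of the difference between the lineages, as an interaction term in limma over all 18 libraries, called 0 of 124736 loci (1515 at an unadjusted p under 0.05) and 0 of 601 species (13 at an unadjusted p under 0.05). A p that misses the threshold does not show that the lineages were alike. One P5 library of the TBT lineage, replicate 5, had only 246520 reads. With it 19159 of 125004 loci were called higher in that lineage, and without it 42659 of 134290.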

How the data were processed

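RNA libraries of FACS-sorted cells were analysed from the tables that the authors deposited, 1 for germline and 1 for somatic libraries, with 970384 LTR loci each. Per the labels, reads were processed with Trim Galore, STAR and edgeR against mm10; how reads mapping to several places were counted is not given in the sources used here. The deposited values are a normalized signal, CPM values scaled by the authors separately within each table. Dividing each column by its smallest step gave whole reads for 100% of the values (tolerance 0.02), so reads were recovered and the 8 libraries rescaled together. A further 5 columns of per-sample values were not used.

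Loci were placed with GENCODE release 21 of the mouse (GRCm38). Reads were scaled by TMM (edgeR 4.0.16), features with a mean under 5 units left out, and log2(CPM + 1 unit), with 1 unit at 0.227 CPM, tested with limma 3.58.1 (trend, replicate number as a block, Benjamini-Hochberg). The deposited unit being CPM, the count tests of edgeR and DESeq2 1.42.0 on the recovered reads were alternatives. The main test used R 4.3.3, and the exact sign-flip test of the share of reads used Python 3.11.15. The scripts were tested on simulated data, in which few of 131053 loci changed. With a dispersion (spread between libraries beyond counting error) of 0.968, estimated from these reads, 0% of 4-fold and 0% of 8-fold changes were called. Of 32-fold changes 30.5% were called. With a dispersion of 0.3 these shares were 0%, 39% and 77%. A locus that was not called may therefore still differ. Intervals (95%) and floors (3 reads per library) cover counting error only.

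Named were, per direction, the 6 loci outside and the 6 inside genes with the largest difference among those past the threshold, with no overlap of the populations and a mean of at least 20 units, at most 1 per 10 kb, up to 8 called species totals of the same mean, species of young families, and up to 3 called genes per list with the germline and transposon genes that the study discusses. Other genes of the lists, LTR108a_Mam, other species abundant in a population and the Y chromosome loci were named after their values were seen. The members, lists and tests were chosen with earlier results of these data known. The count of the macrophage and blood list is not reported here.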

Additional observations from a re-analysis of the deposited data

Results flagged for a closer look

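In 22 of 164 groups of 4 libraries, 1 library lay apart from the other 3 by a gap over Dixon's 95% critical value. Chance gives about 1 in 20. In most of them 1 library had a few reads where the others had 0.

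Among P5 libraries, replicate 4 had 1.97 CPM of Nr5a1, 1.41 CPM of Dhh and 2.25 CPM of Ptch1, where the other 3 had 0. Replicate 3 had 5.14 CPM of Pdgfra and 0.147 CPM of Inhba. At single loci replicate 4 had 1.69 CPM at the ETnERV2-int locus, 0.844 CPM at the ERVB4_1B-I_MM-int locus on chromosome 3, 1.12 CPM at the ERVB4_1-I_MM-int locus in Gm45889 and 14.6 CPM at the LTRIS2 locus in Prss35. Replicate 1 had 5.99 CPM at the RLTR4_MM-int locus on chromosome 13 and 14.3 CPM at the ETnERV3-int locus.

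Among P6 libraries, replicate 3 had 0.944 CPM of IAPEY5_I-int, 0.236 CPM of Hormad1 through its MTC locus, 0.472 CPM of Rxrg, 0.472 CPM at the MTB_Mm locus and 0.472 CPM at the RMER19B locus on chromosome 11. Replicate 4 had 0.201 CPM of ERVB4_3-I_MM-int, 0.803 CPM at the RLTR25B locus, 0.201 CPM at the ORR1A0-int locus in Gm364 and 3.82 CPM at the RLTR9E locus. Of RMER6-int, replicate 3 had 0 CPM where the other 3 had 0.197 to 0.218 CPM.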

How the results depend on the processing

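Over 81 named loci, species and genes, 1160 of 1236 values under an alternative kept the direction and the side of the threshold, 64 kept the direction only and 12 turned. Of the 64, 18 came from leaving out replicate 1. All 24 named loci kept both. The cause of the changes below was not tested. Values that turned were those of IAPA_MM-int (-0.0075 with median-ratio scaling, -0.19 in replicates 3 and 4 alone, -0.12 over all loci of the species, -3.01 with the same total outside genes, and -0.089 to 0.48 when 1 replicate was left out), MERVL-int (-0.31 over all loci, -0.23 with the same total), RLTR6-int (-0.083 and -0.43), MMERGLN-int (-0.028 over all loci), and IAPEz-int and IAPLTR3-int (-2.17 and -0.65 with the same total). Counts are given as higher and lower against 10971 and 25517 loci, 3818 and 273 loci outside genes, 559 and 6 species, and 890 and 1032 host genes. With a mean of at least 20 units, which tests fewer loci, they were 4664 and 10345 loci and 1242 and 93 outside genes. The quasi-likelihood test of edgeR gave 12279 lower loci, 7194 higher loci outside genes, and 455 and 288 host genes, and its likelihood ratio test 29632 higher loci, 15455 of them outside genes. Replicates 3 and 4 alone gave 27268 higher loci, 10 lower species, and 2830 and 2089 host genes. Host genes numbered 1782 lower with median-ratio scaling, 572 lower with a pseudocount of 0.25 units and 1519 higher with DESeq2. All loci of a species gave 172 and 54 species, and the same total outside genes 310 and 43. Leaving out 1 replicate gave 4233 to 9122 higher and 9414 to 22533 lower loci, 1408 to 3222 and 140 to 172 outside genes, 528 to 558 and 6 to 8 species, 49 to 823 and 58 to 1005 host genes, and a difference in the share of reads outside genes of 11.5 to 18.7 percentage points. The lowest counts of loci and host genes were those without replicate 1.

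Same-numbered libraries did not deviate together (correlations of -0.0146, 0.0145, -0.0382 and 0.0315), and the labels do not say that a number marks 1 animal or litter. Without the replicate block there were 11437 and 26046 loci, 561 and 6 species, and 1241 and 1258 host genes, and no named value changed its side. The share of reads outside genes, which differs by 15.3 percentage points either way, had p = 0.0286 in the exact permutation test without the block. The depth of P5 replicates 1 and 2, and the 4 libraries per population, limit what low loci can show.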

Other observations

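Low read numbers differed between the populations in a way that no comparison above used. Of loci with 1 to 20 reads, 58.5%, 59.6%, 53.4% and 52.6% held an even number in P5 replicates 1 to 4, against 47.6% to 48.9% in the P6 libraries.

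The P4 germline libraries, which entered no fit, had reads at some of the named loci and not at others. At the RLTR48A locus in Rpl39l they had 1427, 766, 780 and 711 reads, and at the MER31B locus in Fam183b 1536, 672, 507 and 762 reads. At the RMER19B locus on chromosome 11 they had 20, 10, 0 and 57 reads, where P5 libraries had 162 to 729. At the RLTR4_MM-int locus in Chd9 they had 1 read in all, and the P5 libraries 31.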
